A study of Mus musculus with 10 samples.

Results

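The 8 genes described here encode CXC chemokines and receptors that steer neutrophils: the ligands Cxcl1, Cxcl2, Cxcl3, Cxcl5 and Ppbp, their receptor Cxcr2, and the opposing pair of Cxcl12 and its receptor Cxcr4. They were chosen by symbol, through the mouse GENCODE M21 annotation, from the 55385 mouse genes of the count table. All 8 passed the filter on low counts. Bulk RNA-seq was done on 10 libraries of Tomato-positive neutrophils isolated from grafted squamous cell carcinomas (SCC), and the question named in the series' design is whether Sox2 in the tumour cells alters the neutrophils.

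Every host was a CatchupIVM-red mouse, a strain in which Cre and a Tomato reporter sit at the neutrophil gene Ly6g, so that Tomato marks cells that have expressed Ly6g. The graft was either the parental Sox2low SCC line, called control here, or SCC cells labelled Sox2Hi. The sample descriptions mark all libraries C57, the control grafts GFP and the Sox2Hi grafts Sox2, and do not explain these marks. Naive hosts received no therapy, and treated hosts received an antibody to PDL1 together with an agonist of CD40. Each naive group had 3 libraries and each treated group had 2. The labels give neither the age or sex of the hosts, nor how many animals gave a library, nor how Sox2 was raised. They do not say that replicates came from separate animals, so the p-values measure only the spread between these libraries. A group of 2 leaves its own spread poorly known, and all 4 groups shared 1 estimate of it.

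Cxcr2 ligands draw neutrophils out of the blood and towards inflamed tissue, and neutrophils that have arrived make more of these ligands themselves, chiefly Cxcl2, which recruits further cells. Cxcl12 acts through Cxcr4 and holds neutrophils in the bone marrow. Cxcr2 is high on fresh neutrophils and Cxcr4 on aged ones.

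After treatment of control grafts, Cxcl2, Cxcl1 and Cxcr2 rose, Cxcl2 the most at 2.79-fold. After treatment of Sox2Hi grafts edgeR called none of the 8, against 5.02% of all genes tested there and 48.6% in control grafts. DESeq2 called Cxcl1 as lower in Sox2Hi grafts, where it called 11.3% of all genes. The response of Cxcl1 and of Cxcl2 was lower in Sox2Hi grafts than in control grafts. Cxcl1 and Cxcl2 were also lower in treated Sox2Hi than in treated control libraries, by 1.77-fold and 1.84-fold, with calls near the threshold. Cxcl2 had the highest level of the 8 per kb of exon in every library, and Cxcr4 showed no difference that passed edgeR's test. Summed neutrophil marker genes, like Cxcl2 and Cxcr2, were highest in control treated libraries and next in treated Sox2Hi ones.

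Cxcl1, Cxcl2 and Cxcl3, the ligands best known as fast targets of NF-kB, are closely related genes of 1 cluster on chromosome 5. Their promoter stretches are shown because they share a motif of the NF-kB type. Each stretch ends just before the GENCODE or the RefSeq start of the gene, whichever comes first, since these starts differ. They were read from RefSeq (GRCm38.p6, plus strand, 5′ to 3′). Capitals mark the longest run of bases that all 3 promoters share.
Cxcl1 promoter, chr5:90891129-90891240: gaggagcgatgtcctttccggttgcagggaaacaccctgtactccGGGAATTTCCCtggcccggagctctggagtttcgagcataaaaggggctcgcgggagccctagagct
Cxcl2 promoter, chr5:90903757-90903870: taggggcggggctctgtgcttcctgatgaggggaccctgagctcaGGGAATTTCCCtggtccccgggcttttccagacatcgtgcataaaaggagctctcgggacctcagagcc
Cxcl3 promoter, chr5:90785983-90786100: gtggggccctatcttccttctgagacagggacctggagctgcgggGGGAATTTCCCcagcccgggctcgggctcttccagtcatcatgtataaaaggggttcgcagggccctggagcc
This run of 11 bases, GGGAATTTCCC, was then searched on either strand (reverse complement GGGAAATTCCC) within 250 bases before each RefSeq start. It began 71 bases before the start of Cxcl1, 97 before that of Cxcl2 and 73 before that of Cxcl3. The promoters of Ppbp, Cxcl12, Cxcr2 and Cxcr4 did not hold these letters in that window, and the table used had no entry for Cxcl5. Among all promoters of the table, 14 of 32851 held the run, or 0.0426%. It was taken from these 3 promoters, so their holding it is no test, and a match does not show that a factor bound there.

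The libraries held between 13815734 and 22986193 counts. Values are given as CPM, scaled with factors from the 11274 genes that averaged 5 CPM or more. Scaling with factors from all tested genes (all-gene scaling) shifts the median gene by 0.42 on the log2 scale for treatment in control grafts, by -0.20 for treatment in Sox2Hi grafts, by 0.29 and -0.34 for Sox2Hi against control in naive and treated grafts, and by -0.63 for the difference between the responses. Background reads differed between the groups too. From 1738 olfactory and vomeronasal receptor genes, which neutrophils do not express, they were estimated at 1.35 to 1.52% of counts in control treated libraries and 3.34 to 7.46% in the other 8. Tests are edgeR's quasi-likelihood test with Benjamini-Hochberg adjustment over the 29648 genes tested, and a gene was called at an adjusted p under 0.05. Ly6g, the gene that carries the reporter, stood at 1.63 to 3.26 CPM in naive libraries of both grafts, 11.5 and 18.3 in control treated and 5.45 and 9.82 in treated Sox2Hi ones. In bulk RNA, fewer cells of a type and less RNA per cell cannot be told apart.

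**Figure D1:**
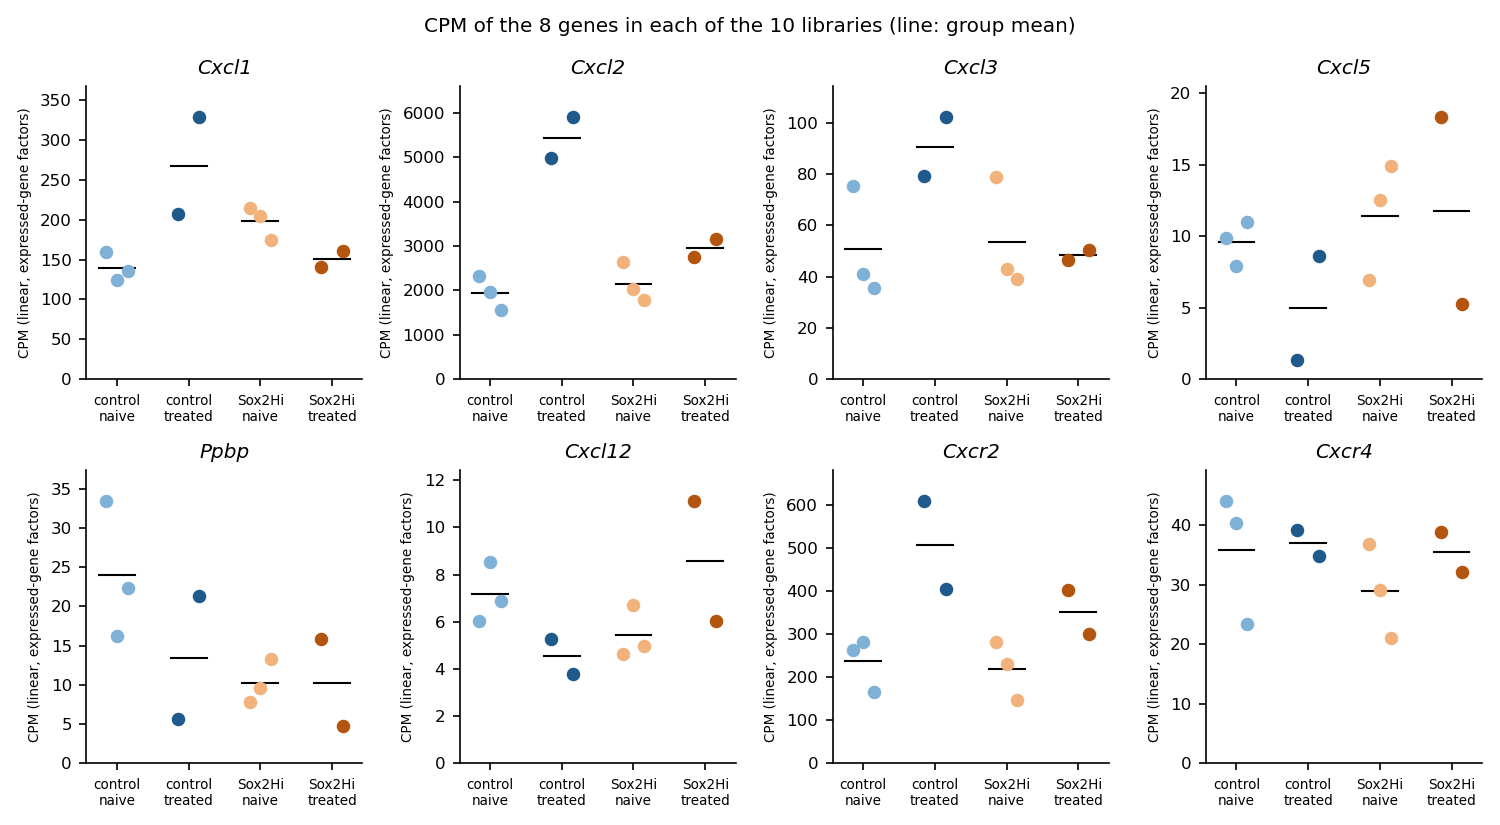
CPM of each of the 8 genes (linear axis from 0, factors from expressed genes) in the 10 libraries. Points are libraries by group and horizontal lines are group means; both control treated points lie above the other 8 for Cxcl2 (4986 and 5895 CPM), while the groups overlap for Cxcr4.

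Cxcl2, the chief ligand that neutrophils make themselves, lies at chr5:90903871-90905938 on the plus strand (ENSMUSG00000058427). Its level was 2331, 1960 and 1555 CPM in naive control libraries, 4986 and 5895 in treated control, 2634, 2043 and 1776 in naive Sox2Hi, and 2748 and 3158 in treated Sox2Hi ones. The control treated libraries were the highest of all 10, and neither naive group overlapped its treated group. The naive groups overlapped each other. In control grafts Cxcl2 rose from 1949 ± 388 CPM (SD, n = 3) to 5441 ± 643 (SD, n = 2), a log2 fold change of 1.48 (SE 0.21, edgeR adjusted p = 0.00052). The median over all genes tested was -0.72. In Sox2Hi grafts its log2 fold change was 0.46 (SE 0.21, edgeR adjusted p = 0.22), from 2151 ± 439 (SD, n = 3) to 2953 ± 289 CPM (SD, n = 2). The difference between these responses was -1.02 (SE 0.31, edgeR adjusted p = 0.027), the fold change being smaller in Sox2Hi grafts.

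That difference for Cxcl2 did not pass the test in some refits. Its edgeR adjusted p was 0.11 without Sox2Hi naive replicate 1 (log2 difference -0.66), 0.087 without control naive replicate 3 (-0.68) and 0.16 after estimated background reads were subtracted (-0.77), where 8.15% of the genes tested were called, against 31.2% before. Leaving out control treated replicate 2, Sox2Hi naive replicate 2, or either Sox2Hi treated library also ended the call, at adjusted p from 0.057 to 0.099. Library totals with no factors gave -0.67 (adjusted p = 0.054).

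Cxcl1 (ENSMUSG00000029380, chr5:90891241-90893115, plus strand), a ligand also made by epithelium, stroma and macrophages, had fold changes of opposite sign in the grafts. It was at 159, 124 and 136 CPM in naive control libraries, 207 and 328 in treated control, 215, 205 and 175 in naive Sox2Hi, and 141 and 161 in treated Sox2Hi ones. No pair of groups compared overlapped: treated libraries lay above naive ones in control grafts and below them in Sox2Hi grafts. Treatment in control grafts raised Cxcl1 from 140 ± 18 (SD, n = 3) to 267 ± 85 CPM (SD, n = 2), a log2 fold change of 0.94 (SE 0.20, edgeR adjusted p = 0.0041). Without control treated replicate 2, the higher of the pair, this was 0.58 (edgeR adjusted p = 0.064), and on library totals alone it was 0.30 (edgeR adjusted p = 0.18). In Sox2Hi grafts the log2 fold change was -0.39 (SE 0.21, edgeR adjusted p = 0.26), from 198 ± 21 (SD, n = 3) to 151 ± 15 CPM (SD, n = 2). The responses differed by -1.33 (SE 0.29, edgeR adjusted p = 0.0093). Of the 8 genes, Cxcl1 had the lowest adjusted p for that difference, and the call held under every alternative run, at -0.97 to -2.16. The 7 macrophage markers summed to 610 to 941 CPM in naive control libraries, 515 and 999 in treated control, 1002 to 1379 in naive Sox2Hi, and 620 and 1325 in treated Sox2Hi ones, and their part in the Cxcl1 values was not tested.

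Cxcl3 (ENSMUSG00000029379, chr5:90786103-90789600, plus strand) is the third of the closely related ligands and was far less abundant. It stood at 75.1, 40.9 and 35.7 CPM in naive control libraries, 79.3 and 102 in treated control, 78.8, 43.1 and 38.9 in naive Sox2Hi, and 46.6 and 50.5 in treated Sox2Hi ones. Replicate 1 was the highest library of each naive group, by a wide gap, and came near the lower control treated library. The log2 fold change with treatment was 0.84 in control grafts (SE 0.33, edgeR adjusted p = 0.053) and -0.14 in Sox2Hi grafts (SE 0.34, edgeR adjusted p = 0.82). A block for the naive replicate numbers was added only after naive libraries of one number were seen to deviate together. With this block, Cxcl3 passed the test in control grafts at 0.92 (edgeR adjusted p = 0.0018), and its responses differed by -0.99 (edgeR adjusted p = 0.013, against 0.12 without the block). The block was thus chosen from these same data. Other refits gave smaller values. The log2 fold change in control grafts was 0.50 without control naive replicate 3, 0.44 with limma-voom and 0.21 on library totals, and the difference between the responses was -0.41 without Sox2Hi naive replicate 1, -0.58 without control naive replicate 3, -0.51 with limma-voom and -0.62 on library totals, none of them called. Without control naive replicate 1, by contrast, both were called, at 1.13 (edgeR adjusted p = 0.015) and -1.28 (edgeR adjusted p = 0.042). All-gene scaling called both too, at 1.27 (edgeR adjusted p = 0.014) and -1.60 (edgeR adjusted p = 0.032), where it called 34.0% and 27.5% of all genes tested. Of the 31-base stretches in Cxcl2 transcripts, 7.59% also occur in another gene, all of them in Cxcl3, so some reads of one may have been given to the other. Cxcl1 shares none.

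Cxcl5 and Ppbp, the ligands that open the cluster, were low. Cxcl5 (ENSMUSG00000029371, chr5:90759360-90761624) is mainly an epithelial product, and Ppbp (ENSMUSG00000029372, chr5:90768518-90770063) is the precursor of a platelet chemokine. Cxcl5 was at 9.86, 7.95 and 11.0 CPM in naive control libraries, 1.34 and 8.59 in treated control, 6.94, 12.5 and 14.9 in naive Sox2Hi, and 18.3 and 5.26 in treated Sox2Hi ones. Its treated pairs each differed by more than 3-fold between replicates, all groups compared overlapped, and with all libraries and scaling factors neither edgeR, DESeq2 nor limma-voom called it in any comparison. Without control treated replicate 2, the log2 fold change of Cxcl5 with treatment in control grafts was -2.82, against -0.93 with it (edgeR adjusted p = 0.22). The responses then differed by 2.87, against 0.98 (edgeR adjusted p = 0.37). The 1 treated control library left in that fit held 18 Cxcl5 reads, with 22.8% of them estimated background. On library totals alone the fold change in control grafts was -1.56 (edgeR adjusted p = 0.048). Keratinocyte and carcinoma markers summed to 533 to 1622 CPM in naive control libraries, 423 and 931 in treated control, 705 to 850 in naive Sox2Hi, and 499 and 744 in treated Sox2Hi ones. Ppbp was at 33.4, 16.2 and 22.4 CPM in naive control libraries, 5.66 and 21.3 in treated control, 7.83, 9.66 and 13.3 in naive Sox2Hi, and 15.8 and 4.81 in treated Sox2Hi ones. Only its naive groups did not overlap, control being higher, and the log2 fold change of Sox2Hi against control there was -1.23 (SE 0.48, edgeR adjusted p = 0.11). By limma-voom that difference was called, at -1.63 (adjusted p = 0.0088). Without control treated replicate 2, the log2 fold change of Ppbp with treatment in control grafts was -2.07, against -0.83 with it (edgeR adjusted p = 0.21). That fit again rests on 1 treated control library. The 8 platelet and megakaryocyte markers summed to 23.5 to 49.6 CPM over the 10 libraries. Of these, Gp1ba and Gp9 averaged under 1 CPM in every group, Gp5 and Tubb1 in some groups, and Pf4, Itga2b, Gp6 and Clec1b in none. The part of platelets in the Ppbp values was not tested.

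These 5 ligands, Pf4 and Cxcl15 are the 7 protein-coding genes of a 147 kb stretch on chromosome 5. Along it, Cxcl1 and Cxcl2 lie 132 and 145 kb from the start of Cxcl5, and Cxcl3 lies 26.7 kb from it, between Pf4 and Cxcl15. In control grafts the log2 fold changes with treatment were positive for Cxcl3, Cxcl1 and Cxcl2 and negative for the other 4. With all-gene scaling Pf4 was at 0.01, and Cxcl5, Ppbp and Cxcl15 were at -0.49, -0.39 and -0.22. Pf4, a platelet chemokine also made by macrophages, had a log2 fold change of -0.39 (SE 0.47, edgeR adjusted p = 0.49) in control grafts and -0.24 (SE 0.46, edgeR adjusted p = 0.78) in Sox2Hi grafts. Cxcl15 had 235 reads in Sox2Hi treated replicate 2 and 27 to 74 in the other 9 libraries, so its fold change in Sox2Hi grafts rests on 1 library. Differences between neighbouring genes were not tested.

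**Figure D2:**
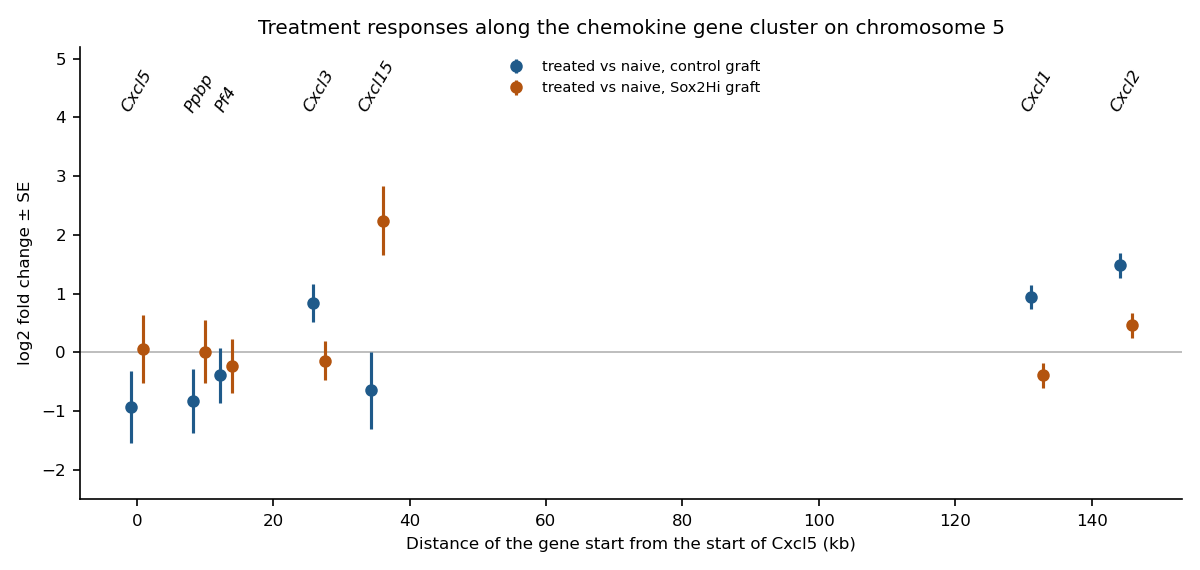
log2 fold change with treatment (± SE, edgeR) of the 7 cluster genes against the distance of each gene's start from the start of Cxcl5 in kb, with control grafts in blue and Sox2Hi grafts in orange. Cxcl1 is at 0.94 and -0.39 and Cxcl2 at 1.48 and 0.46; the high Cxcl15 point in Sox2Hi grafts rests on 1 library.

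Cxcr2 (ENSMUSG00000026180, chr1:74153989-74161246, plus strand), the receptor for these ligands, rose with treatment in control grafts. It was at 263, 281 and 167 CPM in naive control libraries, 609 and 405 in treated control, 282, 230 and 148 in naive Sox2Hi, and 402 and 301 in treated Sox2Hi ones. Treated libraries lay above naive ones in both grafts, and the control treated pair lay just above the Sox2Hi treated pair. The log2 fold change was 1.10 in control grafts (SE 0.29, edgeR adjusted p = 0.010) and 0.68 in Sox2Hi grafts (SE 0.29, edgeR adjusted p = 0.18). The difference between the responses was -0.42 (SE 0.41, edgeR adjusted p = 0.44), which did not pass, while DESeq2 called it at -1.25 (adjusted p = 0.0047). It depended on single libraries, at -0.01 without control naive replicate 3 or Sox2Hi naive replicate 1, -0.07 without control treated replicate 1, -0.13 without Sox2Hi treated replicate 2, -0.19 without Sox2Hi naive replicate 2, -0.64 without Sox2Hi treated replicate 1 and -0.70 without control treated replicate 2. In control grafts the rise was 0.74 without control treated replicate 1 (edgeR adjusted p = 0.11), 0.89 after background subtraction (edgeR adjusted p = 0.054) and 0.46 on library totals alone (edgeR adjusted p = 0.15). Of the 31-base stretches in Cxcr2 transcripts, 12.1% occur in other genes, among them Dnajb14 and Pbld1. Cxcr1, a second receptor of the family, rose in control grafts from 2.96 to 8.03 CPM on average, with a log2 fold change of 1.43 (SE 0.37, edgeR adjusted p = 0.0091).

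Cxcr4 (ENSMUSG00000045382, chr1:128588199-128592293, minus strand), the retention receptor, stayed within 21.1 to 44.0 CPM over the 10 libraries. It was at 44.0, 40.3 and 23.4 CPM in naive control libraries, 39.2 and 34.9 in treated control, 36.8, 29.2 and 21.1 in naive Sox2Hi, and 38.9 and 32.2 in treated Sox2Hi ones. The groups overlapped in all comparisons, and its log2 fold changes lay between -0.31 and 0.29. In control grafts treatment gave 0.05 (SE 0.28, edgeR adjusted p = 0.89), and the sign was negative on library totals alone, at -0.58. DESeq2 called it higher there, as 1 of 5 genes called. Per kb of exon, Cxcr2 was 3.55 to 4.67 times Cxcr4 in the 6 naive libraries and 5.53 to 9.21 times in the 4 treated ones. The ranges did not overlap within either graft.

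Cxcl12 (ENSMUSG00000061353, chr6:117168535-117181367, plus strand), the stromal ligand of Cxcr4, was the lowest of the 8 per kb. It was at 6.03, 8.54 and 6.90 CPM in naive control libraries, 5.28 and 3.78 in treated control, 4.65, 6.70 and 4.97 in naive Sox2Hi, and 11.1 and 6.03 in treated Sox2Hi ones. Control treated libraries lay below control naive ones, and Sox2Hi treated ones spanned the widest range. Its log2 fold change was -0.66 in control grafts (SE 0.30, edgeR adjusted p = 0.081) and 0.65 in Sox2Hi grafts (SE 0.28, edgeR adjusted p = 0.19). In control grafts Cxcl12 was called lower on library totals (-1.30, edgeR adjusted p = 0.0043) and with only the groups compared (-0.80, edgeR adjusted p = 0.039). It was also called without control naive replicate 1 or any 1 of the Sox2Hi naive libraries (-0.79 to -0.89, edgeR adjusted p = 0.038 to 0.047). The fall was -0.76 without Sox2Hi treated replicate 2 and -0.42 without control treated replicate 2. It shrank to -0.24 with all-gene scaling (edgeR adjusted p = 0.51) and to -0.05 with DESeq2 (adjusted p = 0.92). The value in Sox2Hi grafts was 0.15 without Sox2Hi treated replicate 1 and 1.02 without replicate 2. The difference of 1.32 between them was called (SE 0.41, edgeR adjusted p = 0.032). The call was lost without Sox2Hi treated replicate 1 (0.82, edgeR adjusted p = 0.18), without control treated replicate 2 (1.07, edgeR adjusted p = 0.12), without control naive replicate 2 (1.19, edgeR adjusted p = 0.058), with all-gene scaling (0.69, edgeR adjusted p = 0.19), with DESeq2 (0.48, adjusted p = 0.42), with limma-voom (1.07, adjusted p = 0.062) and after background subtraction (1.25, edgeR adjusted p = 0.21). Estimated background made up 24.3 to 49.2% of its reads in a library, and at most 22.8% for any other of the 8. At 8176 bases, its exons are the longest of the 8 genes. Fibroblast markers, 7 genes that include Col1a1, summed to 274 to 757 CPM in control naive, 87.8 and 102 in treated control, 480 to 667 in naive Sox2Hi, and 98.8 and 317 in Sox2Hi treated libraries. All 7 fell with treatment in control grafts, with a median log2 fold change of -2.87, where 36.1% of all genes tested fell and the median over all genes was -0.72. With all-gene scaling 4 of them fell, against 15.3% of all genes. In Sox2Hi grafts their median was -1.71, with none called, against 0.27 over all genes. Endothelial markers, 6 genes, had 4 called lower in control grafts and none in Sox2Hi grafts. Their medians of -1.01 and 0.06 lay near those over all genes. For the difference between the responses 3 were called higher, against 26.8% of all genes, with a median of 1.23 against 0.85 over all genes, and 1 was called with all-gene scaling. They summed to 46.3 to 52.0 CPM in naive control libraries, 30.7 and 44.0 in treated control, 39.3 to 43.3 in naive Sox2Hi, and 42.9 and 43.3 in treated Sox2Hi ones. The part of either cell type in the Cxcl12 values was not tested. Ackr3, the other Cxcl12 receptor, fell with treatment in control grafts by 0.98 on the log2 scale (SE 0.31, edgeR adjusted p = 0.024), from 78.5 to 40.0 CPM on average, a call that all-gene scaling did not make.

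**Figure D3:**
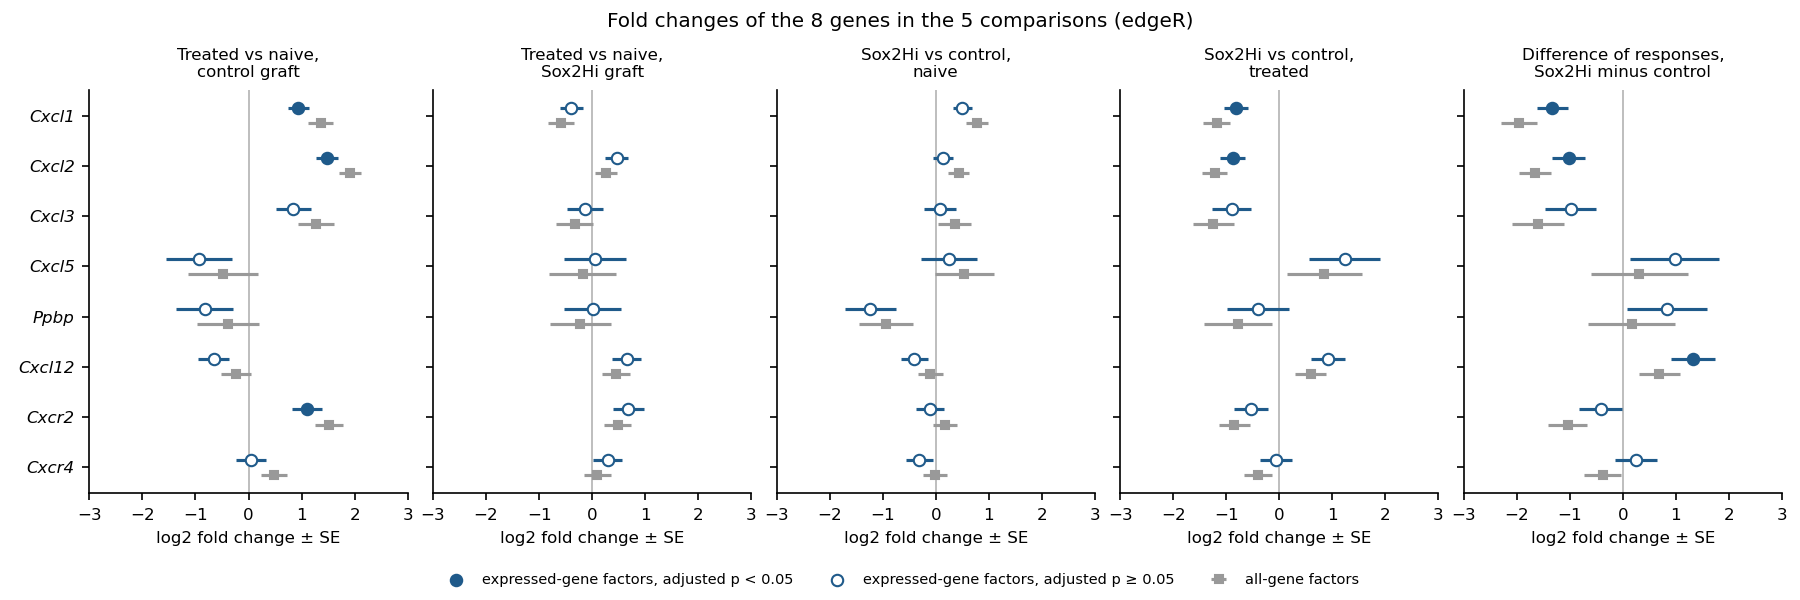
log2 fold changes (± SE, edgeR) of the 8 genes in the 5 comparisons, with expressed-gene factors in blue (filled where the adjusted p is under 0.05) and all-gene factors as grey squares. Filled points are Cxcl1, Cxcl2 and Cxcr2 for treatment in control grafts, Cxcl1 and Cxcl2 between treated grafts, and Cxcl1, Cxcl2 and Cxcl12 for the difference of responses.

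For treatment in control grafts, 3 of the 8 genes were called, all higher (Cxcl1, Cxcl2 and Cxcr2). In that comparison 48.6% of all genes tested were called, 12.5% higher and 36.1% lower. Among the tested genes of at least 5 CPM, the range in which all 8 lie, 55.5% were called, 28.0% higher and 27.4% lower. The count for the 8 genes is thus no larger than the background in either direction together, and 3 of 8 higher calls stand against 28.0% for genes in their range. All 3 stayed positive under every alternative run. The direction of calls over all genes turned with the scaling. All-gene scaling called 4 of the 8, all higher, with Cxcl3 added, against 18.7% higher and 15.3% lower over all genes tested. DESeq2 called 5, adding Cxcl3 and Cxcr4, against 21.4% higher and 4.63% lower. Library totals alone gave 1 higher, Cxcl2 at 0.85 (edgeR adjusted p = 0.0016), and 3 lower, Cxcl5, Ppbp at -1.45 (edgeR adjusted p = 0.037) and Cxcl12, against 5.08% higher and 67.8% lower. Limma-voom called 4, adding Ppbp as lower, against 41.1% in either direction.

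For treatment in Sox2Hi grafts, edgeR called 0 of the 8 genes, against 5.02% of all genes tested and 11.3% of those of at least 5 CPM. At an unadjusted p under 0.05 edgeR gave 2 (Cxcl12 and Cxcr2), against 7051 of the 29648 genes tested. By adjusted p, DESeq2 called 1 (Cxcl1, at -0.62, adjusted p = 0.049, against 11.3% of all genes) and limma-voom called 0 (11.9% of all genes). Cxcr2 was higher in both treated libraries than in all 3 naive ones, and it passed at 0.81 with a block by the number in the sample descriptions (edgeR adjusted p = 0.025).

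Between naive grafts edgeR again called 0 of the 8, against 5.80% of all genes tested and 8.88% of those of at least 5 CPM. At an unadjusted p under 0.05 edgeR gave 2 (Cxcl1 and Ppbp), against 9250 of the 29648 genes tested. By adjusted p, DESeq2 called 2 (Cxcl1 and Cxcl2, both higher in Sox2Hi) and limma-voom 1 (Ppbp, lower). Those tools called 13.9% and 31.7% of all genes. Cxcl1 was higher in all 3 Sox2Hi than in all 3 control naive libraries, with a log2 fold change of 0.50 (SE 0.18, edgeR adjusted p = 0.096). With the block for naive numbers it was 0.51 (edgeR adjusted p = 0.092).

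Between treated grafts, 2 of the 8 were called, both lower in Sox2Hi, against 13.0% of all genes tested (9.69% higher, 3.29% lower) and 17.8% of those of at least 5 CPM (7.74% lower). All-gene scaling called the same 2 as lower, and there 4.18% of all genes were higher and 9.57% lower, so that lower calls were the more common. Cxcl1 had a log2 fold change of -0.82 (SE 0.23, edgeR adjusted p = 0.037) and Cxcl2 of -0.88 (SE 0.24, edgeR adjusted p = 0.036). These calls were near the threshold. Both were lost when only the groups compared were fitted (-0.66, edgeR adjusted p = 0.11, and -0.72, edgeR adjusted p = 0.070), after background subtraction (edgeR adjusted p = 0.11 for both) and on library totals alone (-0.43 and -0.48), where Cxcl12 was the 1 gene of the 8 called, as higher. On library totals 35.9% of all genes were called higher and 1.04% lower, and after background subtraction 2.99% were called in either direction. Leaving out any treated library also lowered the calls over all genes. Without control treated replicate 2, Cxcl1 stood at -0.47 (edgeR adjusted p = 0.22) and Cxcl2 at -0.77 (edgeR adjusted p = 0.14). Without Sox2Hi treated replicate 1 the adjusted p in edgeR was 0.19 for Cxcl1 and 0.18 for Cxcl2, and without Sox2Hi treated replicate 2 it was 0.099 and 0.089. Leaving out control naive replicate 1 or Sox2Hi naive replicate 2, which enter only through the shared spread and factors, also ended both calls. The Cxcl1 call was lost as well without control naive replicate 3, Sox2Hi naive replicate 1 or Sox2Hi naive replicate 3 (edgeR adjusted p = 0.053 to 0.060), and the Cxcl2 call without control treated replicate 1 (edgeR adjusted p = 0.063). DESeq2 called 4 of the 8, adding Cxcl3 and Cxcr2, against 2.01% higher and 16.6% lower over all genes. Limma-voom called the same 2 as edgeR, against 7.46% in either direction. Cxcl3 differed by -0.90 (SE 0.37, edgeR adjusted p = 0.11), and by -0.90 with the block for naive numbers (edgeR adjusted p = 0.016).

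For the difference between the treatment responses, 3 of the 8 were called: Cxcl1 and Cxcl2 with a lower response in Sox2Hi grafts and Cxcl12 with a higher one. The background was 31.2% of all genes tested (26.8% higher, 4.42% lower) and 26.2% of those of at least 5 CPM (15.4% higher, 10.8% lower). That split turned round with the scaling. All-gene scaling called 3, Cxcl1, Cxcl2 and Cxcl3, all with a lower response, against 11.3% higher and 16.2% lower over all genes. DESeq2 called 4, adding Cxcl3 and Cxcr2 with a lower response and leaving out Cxcl12, against 4.01% higher and 22.5% lower. Limma-voom called Cxcl1 and Cxcl2, against 31.8% in either direction.

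Cxcl2 made up most of the Cxcr2 ligand reads in every library. Per kb of exon, it made up 87.3 to 90.7% of the summed level of the 5 Cxcr2 ligands in naive libraries and 92.2 to 94.6% in treated ones. Cxcl1 made up 6.33 to 9.71% and 4.33 to 5.68%. The ratio of Cxcl2 to Cxcl1 was 13.3, 14.3 and 10.3 in naive control libraries, 21.8 and 16.3 in treated control, 11.1, 9.05 and 9.21 in naive Sox2Hi, and 17.7 and 17.8 in treated Sox2Hi ones. Treated libraries had the higher ratio in both grafts, with no overlap. In the order of levels per kb, Cxcl2 stood first and Cxcl12 last in all 4 groups. Cxcr2 and Cxcl1 followed Cxcl2, their ranges overlapping in both control groups. In Sox2Hi naive libraries Cxcl1 (93.2 to 115 CPM per kb) lay above Cxcr2 (48.7 to 92.4), and in treated Sox2Hi ones Cxcr2 (98.7 to 132) lay above Cxcl1 (75.0 to 86.0). The ranges of Cxcr4 and Cxcl3 overlapped in both naive groups, and those of Cxcl5 and Ppbp in both Sox2Hi groups.

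Markers of neutrophils moved with these results. The 11 markers, which leave out Cxcr2, summed to 10787 to 17595 CPM in naive control libraries, 36301 and 38332 in treated control, 10099 to 14838 in naive Sox2Hi, and 18241 and 18460 in treated Sox2Hi ones. All 11 rose with treatment in control grafts, with a median log2 fold change of 2.70, against 12.5% of all genes and 28.0% of those of at least 5 CPM. In Sox2Hi grafts 6 rose, with a median of 1.47, against 3.36% of all genes. Between treated grafts 4 of the 11 were lower in Sox2Hi (3.29% of all genes), and 8 with all-gene scaling (9.57%). The response was lower in Sox2Hi grafts for 2 of them (4.42% of all genes), with a median difference of -1.07, and for 9 with all-gene scaling (16.2%). Il1r2, the decoy receptor for interleukin-1, held 41.1 to 81.6% of the marker reads. Per 1000 reads of these markers, Cxcl2 had 161, 111 and 145 reads in naive control libraries, 130 and 162 in treated control, 177, 153 and 176 in naive Sox2Hi, and 149 and 173 in treated Sox2Hi ones. On this scale the Cxcl2 groups overlapped in both treatment comparisons. Cxcr2 had 15.6 to 18.2 reads per 1000 in naive control libraries, 15.9 and 11.1 in treated control, 14.7 to 19.0 in naive Sox2Hi, and 21.9 and 16.5 in treated Sox2Hi ones, again with overlap. Cxcl1 had 7.05 to 12.7, 5.40 and 9.02, 14.5 to 17.3, and 7.64 and 8.85 reads per 1000 in the same order of groups. Its Sox2Hi naive libraries were the highest and its treated groups overlapped. Cxcr4 had 2.17 to 3.04, 1.02 and 0.962, 2.08 to 2.48, and 2.11 and 1.77 reads per 1000, the control treated libraries being the lowest of all 10. The part of the markers in the CPM levels was not tested.

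**Figure D4:**
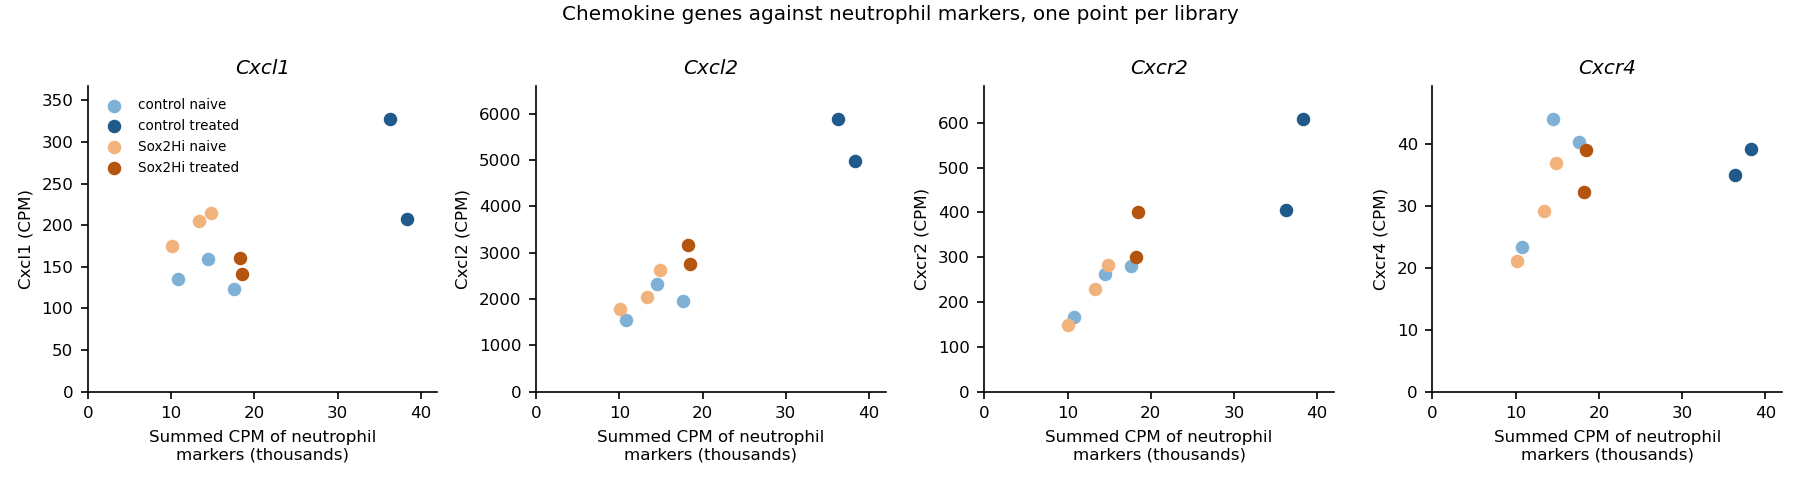
CPM of Cxcl1, Cxcl2, Cxcr2 and Cxcr4 (vertical axes, linear) against the summed CPM of 11 neutrophil markers, divided by 1000 (horizontal axes), 1 point per library and 1 colour per group. Cxcl2 and Cxcr2 are highest where the marker sum is highest, in the control treated libraries, while Cxcr4 there lies within its range in the other groups.

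Across the 10 libraries, Cxcl2 went with Cxcr2 (Pearson r = 0.854, Spearman rho = 0.927) and with Cxcl3 (r = 0.821, rho = 0.903), and Cxcl1 ran against Cxcl12 (r = -0.799, rho = -0.867). These are descriptions on log2(CPM + 1), over libraries that share the group differences and scaling factors. Among 9836 other genes, those most alike in pattern to Cxcl2 were Clec4e, a C-type lectin receptor of myeloid cells (r = 0.992), the protease inhibitor Slpi (r = 0.990) and the NF-kB inhibitor Nfkbia (r = 0.989). For Cxcl1 they were Il23a, a subunit of interleukin-23 (r = 0.950), Sypl (r = 0.937) and Ero1lb (r = 0.923). For Cxcl3 they were Olfm4, a granule protein of some neutrophils (r = 0.914), Tbc1d2b (r = 0.913) and the chemokine Ccl3 (r = 0.910). For Cxcr2 they were Rcsd1 (r = 0.989), Trim30d (r = 0.981) and Csrnp1 (r = 0.980). For Cxcr4 the highest were lower, at 0.886 for Atp10d, 0.858 for the complement receptor C5ar2 and 0.855 for Crebl2. Cxcl5 was most like Vps26b, Zfp141 and Meis2 (r = 0.931 to 0.944). Genes close in pattern to Ppbp included Pnkd (r = 0.909) and Sec23ip (r = 0.891), and those close to Cxcl12 included Fmo1 (r = 0.946) and Adamts5 (r = 0.890).

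Of 26 genes of chemokine receptor signalling, 16 rose with treatment in control grafts, every call being upward, and 10 did not pass the test. The share called higher was 12.5% over all genes tested and 28.0% over those of at least 5 CPM. The median log2 fold change was 0.94 for the 26 against -0.72 over all genes. Rac2, the GTPase of neutrophil migration, rose by 1.86 on the log2 scale (SE 0.25, edgeR adjusted p = 0.00037). The response was lower in Sox2Hi grafts for 4 of 26, against 4.42% of all genes tested and 10.8% of those of at least 5 CPM, among them Arrb2, the arrestin that ends receptor signalling, at -1.23 (SE 0.39, edgeR adjusted p = 0.032) and Rac2 at -1.17 (SE 0.36, edgeR adjusted p = 0.031). With all-gene scaling 18 of the 26 had a lower response, against 16.2% of all genes. Between treated grafts 3 were lower in Sox2Hi (3.29% of all genes tested and 7.74% of those of at least 5 CPM), Rgs18 and Rgs1, which shorten G protein signals, and the G protein subunit Gnai3, and with all-gene scaling 10 were (9.57% of all genes).

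Of 10 other chemoattractant receptors tested, 8 rose with treatment in control grafts, every call being upward, against 12.5% of all genes tested and 28.0% of those of at least 5 CPM. The formyl peptide receptors Fpr1 and Fpr2 led, at 2.73 (SE 0.25, edgeR adjusted p = 3.6e-05) and 2.04 (SE 0.22, edgeR adjusted p = 9.7e-05). In Sox2Hi grafts 2 of the 10 passed, again Fpr1 at 1.17 and Fpr2 at 1.20, against 5.02% of all genes tested and 11.3% of those of at least 5 CPM. The response of Fpr1 and of C5ar1, the receptor for complement C5a, was lower in Sox2Hi grafts, with differences of -1.56 (SE 0.35, edgeR adjusted p = 0.010) and -1.14 (SE 0.37, edgeR adjusted p = 0.037). These were 2 of 10 (4.42% of all genes, 10.8% of those of at least 5 CPM), and with all-gene scaling 8 of the 10 had a lower response (16.2% of all genes). Cxcr2 was thus 1 of several attractant receptors that rose in control grafts, with a smaller fold change than the formyl peptide receptors.

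Among 10 genes that control the Cxcl1, Cxcl2 and Cxcl3 messages, 6 rose and 1 fell in control grafts, against 12.5% higher and 36.1% lower over all genes tested. Nfkbia rose by 1.40 (SE 0.21, edgeR adjusted p = 0.00062), and Zfp36 and Zfp36l1, which destabilise such messages, each by 1.27 (edgeR adjusted p = 0.0049 and 0.0014). Traf3ip2, the adaptor of the interleukin-17 receptor, fell by 0.84 (SE 0.24, edgeR adjusted p = 0.014), a call that all-gene scaling did not make. The response of Nfkbia was lower in Sox2Hi grafts, with a difference of -0.98 (SE 0.30, edgeR adjusted p = 0.030), the 1 gene of the 10 called, a share near the 10.8% of genes of at least 5 CPM. With all-gene scaling 8 of the 10 had a lower response, against 16.2% of all genes. Of 10 genes tied to neutrophil ageing and retention, 6 rose in control grafts (28.0% of genes of at least 5 CPM did), among them Tlr4, a receptor for bacterial lipopolysaccharide, at 1.70 (SE 0.23, edgeR adjusted p = 0.00041).

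The rest of the CXC family had calls in both directions. Of 15 other ligands and receptors, 7 rose and 4 fell in control grafts, against 12.5% higher and 36.1% lower over all genes. In Sox2Hi grafts 5 rose and 2 fell, against 3.36% higher and 1.66% lower. With all-gene scaling the falls in control grafts came down to 1, that of Cxcl14, and the rises in Sox2Hi grafts to 3, without Cxcl15 and Cxcr6. Cxcl10, an interferon-induced attractant of T cells, rose in both, by 2.61 (SE 0.27, edgeR adjusted p = 6.8e-05) and 2.82 (SE 0.27, edgeR adjusted p = 0.00024). Cxcl14, an epithelial chemokine, fell in both, by 1.98 (SE 0.36, edgeR adjusted p = 0.0019) and 2.18 (SE 0.35, edgeR adjusted p = 0.0063). Of the 15, 2 were called for the difference between the responses, Cxcl13 and Cxcl15, both higher in Sox2Hi grafts, against 26.8% higher over all genes tested. With all-gene scaling Cxcl13 was still called higher (edgeR adjusted p = 0.047), Cxcl15 was not called (edgeR adjusted p = 0.077), and Cxcl16 was called lower, at -1.08 (edgeR adjusted p = 0.028). Cxcl13, an attractant of B cells, had 106 and 360 reads in the Sox2Hi treated libraries and 13 to 158 elsewhere.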

How the data were processed

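Bulk RNA-seq of Tomato-positive neutrophils was read from 1 table that the authors deposited, with a column for each of the 10 libraries. The authors' deposited values are treated here as estimated counts per gene. They are whole numbers, and each of the 4 values above 6 digits ends in 0, so they may be rounded estimates. The submitters' processing notes name kallisto 0.44.0 and mm10, with no role for either, and strandedness is not given in the sources used here. Per the labels' protocols, a microprep kit gave the RNA and a low-input kit the libraries. GENCODE M21 (GRCm38) gave symbols and coordinates for 55144 of 55385 mouse identifiers. The 96 entries that are not mouse genes (0.000992 to 0.00277% of a library's counts) were left out.

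All 10 libraries entered 1 model with the 4 groups as terms, in edgeR 4.0.16 (R 4.3.3), after filterByExpr, with the quasi-likelihood F-test. TMM factors came from genes averaging 5 CPM or more, and the all-gene factors are an alternative. SE is the log2 fold change over the square root of F. The common biological coefficient of variation was 0.235. Alternatives were all-gene and RLE factors, library totals, other filters, DESeq2 1.42.0, limma-voom (limma 3.58.1), replicate blocks, fits on the compared groups alone, subtraction of estimated background (silent-gene reads per kb times exon length) and each library left out. The edgeR script was tested on simulated data. A chi-square test of each pair of libraries within a group found no repeat (at least 12.5 per degree of freedom).

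The 8 genes and all lists were chosen with earlier results of these data known. The named list genes are at most 2 per direction, list and comparison with the largest called change, plus genes that are receptors, partners, cluster neighbours or regulators of the 8. Cxcl15 and Traf3ip2 were singled out after their values were seen. Some genes that this rule names are not reported here.

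Titles share replicate numbers. Deviations from group means correlated at 0.273, 0.324 and 0.474 in the 3 same-numbered naive pairs, so naive libraries of one number were taken as pairs on this evidence alone. No label explains the numbers. Other same-numbered pairs ran from -0.280 to 0.247. A block for the naive libraries alone was therefore added after the data were seen.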

Additional observations from a re-analysis of the deposited data

Results flagged for a closer look

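The treatment responses of 3 of the 8 genes differed between the grafts by the test of that difference, the graft by treatment term in edgeR. Cxcl1 had a log2 difference of -1.33 (SE 0.29, edgeR adjusted p = 0.0093), with treated libraries above naive ones in control grafts and below them in Sox2Hi grafts. For Cxcl2 the difference was -1.02 (SE 0.31, edgeR adjusted p = 0.027), with treated libraries above naive ones in both grafts. Without Sox2Hi naive replicate 1 it was -0.66 (edgeR adjusted p = 0.11). Cxcl12 had one of 1.32 (SE 0.41, edgeR adjusted p = 0.032), at 4.53 ± 1.1 CPM (SD, n = 2) in control treated and 8.54 ± 3.6 (SD, n = 2) in Sox2Hi treated libraries. Without Sox2Hi treated replicate 1 it was 0.82 (edgeR adjusted p = 0.18), and neither all-gene scaling (0.69) nor DESeq2 (0.48) called it. Of the tested genes of at least 5 CPM, 26.2% passed the same test.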

How the results depend on the processing

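Of 872 values of the 8 genes under the alternatives, 730 kept their direction and side of the threshold, 40 lost a call, 41 gained one and 61 changed sign. None of the sign changes touched a value that had passed the test, and they fell in 14 of 40 combinations of gene and comparison. In treatment of control grafts, 3 genes were called, 5 with DESeq2 and 2 to 5 with a library left out. In Sox2Hi grafts the count was 0, 1 with DESeq2, 1 with the replicate block by description number and 0 with any library left out. Between naive grafts it was 0, 2 with DESeq2, 1 with limma-voom and 0 with any library left out. Between treated grafts it was 2, 4 with DESeq2, 1 on library totals, 0 with only the groups compared, 0 after background subtraction and 0 to 2 with a library left out. For the difference of responses it was 3, 1 after background subtraction and 1 to 4 with a library left out. After background subtraction calls over all genes fell too, to 2.99% between treated grafts and 8.15% for the difference of responses. Leaving out any treated library also lowered the calls over all genes in both of these. With 1 naive library left out, 3146 of 29150 to 6114 of 29306 genes were called between treated grafts. For the difference of responses it was 7762 of 28718 to 11440 of 29306. Between naive grafts, 3 to 8 of all genes tested were called with 1 naive library left out. The exception was control naive replicate 3, without which 6256 of 29306 were called. For treatment in control grafts such refits called 12042 of 28718 to 15761 of 29306 genes. In Sox2Hi grafts they called 368 of 29659 to 2636 of 28718. The cause of these shifts was not tested.

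Where a library left out leaves 1 in its group, that library is assumed to vary like the others. With the replicate block by title number the counts were 3, 0, 0, 2 and 3, as without it, and Cxcr4 in control grafts became -0.15. With the block in the naive libraries only they were 4, 0, 0, 3 and 4, Cxcl3 being added. The block by description number gave -0.17 for Cxcl5 and -0.42 for Ppbp with treatment in Sox2Hi grafts. It also called Cxcl3 with treatment in control grafts (1.13, edgeR adjusted p = 0.0091). Between treated grafts it called Cxcl3 at -1.23 (edgeR adjusted p = 0.039), and for the difference of responses at -1.31 (edgeR adjusted p = 0.029). Description and title numbers differ for both control treated libraries and for Sox2Hi treated replicate 2.

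Sign changes were all among uncalled values. For treatment in Sox2Hi grafts, Cxcl5 (0.05) became -0.21 with DESeq2, -0.18 with all-gene scaling and on library totals, and -0.12 with limma-voom. Ppbp (0.01) became -0.25, -0.22, -0.23 and -0.16 in these, and -0.03 with RLE factors. With a library left out, Cxcl5 ran from -1.12 to 0.67, Ppbp from -1.09 to 0.61 and Cxcl3 from -0.25 to 0.30. For treatment in control grafts, Cxcr4 (0.05) became -0.15 after background subtraction, -0.58 on library totals, -0.14 with limma-voom and -0.09 with only the groups compared, and ran from -0.33 to 0.15 with a library left out. Between treated grafts, Cxcr4 (-0.06) became 0.07, 0.36 and 0.11 after background subtraction, on library totals and with only the groups compared, with a range of -0.20 to 0.15. Ppbp (-0.40) became 0.06 on library totals, with a range of -1.49 to 0.85. Between naive grafts, Cxcr2 (-0.11) became 0.25 with DESeq2 and 0.18 with all-gene scaling, with a range of -0.41 to 0.02, and Cxcr4 (-0.31) became 0.06 with DESeq2. Cxcl3 (0.08) became -0.00 after background subtraction and -0.37 with limma-voom, with a range of -0.38 to 0.46. Cxcl2 (0.14) became -0.04 with limma-voom, with a range of -0.11 to 0.27, and Cxcl5 (0.25) ranged from -0.08 to 0.43. For the difference of responses, Cxcr4 (0.25) became -0.59 with DESeq2 and -0.38 with all-gene scaling. Ppbp (0.83) became -0.03 with DESeq2 and ranged from -0.26 to 2.08, and Cxcl5 (0.98) ranged from -0.18 to 2.87.

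The 3 genes at or under 16 CPM on average, Cxcl5, Ppbp and Cxcl12, had the lowest CPM, and Cxcl5 and Ppbp had the widest errors. Groups of 2 limit every comparison of treated libraries.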
